A study of Mus musculus with 6 samples.

Results

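Gfap, Vim, Serpina3n, Cd44, Osmr and Lcn2, 6 genes of the 32285 in the count matrices, were followed as a group because each is widely used to mark astrocytes that have reacted to injury or disease. They were found by symbol, and all 6 symbols were present once. The data are single-cell RNA counts from mouse hippocampus, in 3 groups of 2 samples at 6 months of age. In the group called 5xFAD_PBS, 5×FAD mice had received PBS. In 5xFAD_Ab3FTnAu, 5×FAD mice had received Aβ3FTnAu, a gold nanostructure built on protein and directed at amyloid plaques per the series title. In WT_PBS, the wild-type littermates had received PBS. The 5×FAD line carries transgenes expressed in neurons and deposits amyloid plaques early in life. No wild-type mice treated with Aβ3FTnAu were analysed here. The labels do not tie the 2 samples of any group to different animals. All p-values therefore measure the spread between samples, which may be technical.

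Astrocytes are the glial cells that clear glutamate and potassium around synapses and wrap blood vessels. When tissue is damaged or amyloid builds up they enlarge and alter their transcription, a state called reactive, in which intermediate filaments, acute-phase proteins and cytokine receptors rise. Gfap and Vim encode the intermediate filament proteins of the astrocyte cytoskeleton. Serpina3n encodes a secreted inhibitor of serine proteases and Cd44 a surface receptor for hyaluronan and osteopontin. Osmr encodes a receptor chain for oncostatin M, and Lcn2 a secreted protein that binds iron-carrying siderophores. Oncostatin M signals through Osmr and the shared subunit gp130 to the transcription factor STAT3, and NF-κB is the other factor commonly tied to this programme.

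The promoters of the 2 genes on which the tests below turn are shown first, as the 250 bases before the RefSeq transcription start (GRCm38.p6), 5′ to 3′ on the gene's strand. The Gfap window lies at chr11:102897201-102897450 on the minus strand, and the Serpina3n window at chr12:104406458-104406707 on the plus strand. Capitals mark matches on either strand to an NF-κB-type motif, GGGA followed by any 4 bases and CC.
Gfap: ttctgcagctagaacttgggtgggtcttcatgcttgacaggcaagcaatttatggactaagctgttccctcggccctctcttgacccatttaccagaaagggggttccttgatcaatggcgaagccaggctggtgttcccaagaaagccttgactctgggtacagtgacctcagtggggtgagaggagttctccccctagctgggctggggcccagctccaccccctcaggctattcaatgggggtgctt
Serpina3n: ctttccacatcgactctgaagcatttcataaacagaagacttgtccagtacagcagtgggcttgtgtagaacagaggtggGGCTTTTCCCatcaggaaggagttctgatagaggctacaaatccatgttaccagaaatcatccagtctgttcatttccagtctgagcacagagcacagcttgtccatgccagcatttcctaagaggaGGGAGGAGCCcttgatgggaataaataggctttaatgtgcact
The Serpina3n window held 2 matches, at 170 to 161 and at 43 to 34 bases before the start, and the Gfap window held none. This motif was in 17.6% of all 32851 RefSeq windows of the same length and in 3 of the 6 members' windows (Vim, Serpina3n and Osmr). A STAT motif (TTCNNNGAA) was in 7.02% of windows and an AP-1 motif (TGANTCA) in 6.75%, and neither was in any member's window. A C/EBP motif (TTGCNNAA) was in 9.56% of windows and, among the members, in that of Lcn2. A match is a description of these letters and not a binding site. In the GENCODE vM21 annotation (GRCm38), Gfap spans chr11:102887336-102900912, Vim chr2:13573927-13582826, Serpina3n chr12:104406729-104414329, Cd44 chr2:102811141-102901665, Osmr chr15:6813577-6874969 and Lcn2 chr2:32384633-32388252. The windows of Gfap, Vim, Osmr and Lcn2 lie inside these spans, and those of Vim, Osmr and Lcn2 overlap 2, 2 and 4 annotated exons of their own gene. These windows precede the RefSeq start used, but not every annotated start.

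The matrices held 50224 cell barcodes and 32528417 to 76780861 unique molecular identifiers (UMIs, each standing for 1 captured RNA molecule) per sample, and 41656 barcodes were kept. A cell was called an astrocyte when it had at least 3 UMIs from at least 2 of the 5 genes Slc1a3, Aqp4, Gja1, Gjb6 and Fgfr3 and more UMIs of these than of any other marker list. This gate held 807 cells, and 64 of them had exactly 3 UMIs of the 5 genes. There were 70 and 58 astrocytes in the 5xFAD_PBS samples, 38 and 24 in the 5xFAD_Ab3FTnAu samples, and 534 and 83 in the WT_PBS samples. Their share of kept cells was 1.15% ± 0.51 (SD, n = 2), 0.506% ± 0.104 and 2.96% ± 2.02, and each 2-against-2 comparison had an exact permutation p of 0.333, two-sided, the smallest this design allows. All 11 of 11 homeostatic astrocyte genes outside the gate had a higher mean level in these cells than in neuron-like cells. Slc1a2, the main glutamate transporter, reached 6532 CPM (counts scaled per 1000000 UMIs of the sum) in them against 155 in neuron-like cells.

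WT_PBS sample 1 stood apart: it held 534 of the 807 astrocytes, and WT_PBS was the group whose samples differed most, where the chi-square between its samples per degree of freedom was 113.2 against 9.34 in 5xFAD_PBS and 13.7 in 5xFAD_Ab3FTnAu. The gate also took fewer cells of the astrocyte-like cluster in 5xFAD_Ab3FTnAu (43.0% and 54.8%) than in the other samples (76.6% to 82.4%). Barcodes with no mitochondrial UMI made up 22.7% and 17.9% of 5xFAD_PBS, 66.6% and 65.8% of 5xFAD_Ab3FTnAu, and 57.4% and 30.1% of WT_PBS barcodes, and whether these barcodes held nuclei was not tested. The 6 samples shared 293 barcodes between at least 2 of them. Counts were summed per sample and cell class, so a level below is the CPM of such a sum.

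Gfap levels were higher in every 5×FAD astrocyte sum than in both wild-type sums, but edgeR called none of the comparisons, and the level did not separate the treated from the untreated 5×FAD samples. In 5xFAD_PBS its level was 261 and 414 CPM, from 40 and 45 UMIs. In 5xFAD_Ab3FTnAu it was 194 and 501 CPM, from 11 and 22 UMIs. In WT_PBS it was 114 and 166 CPM, from 103 and 26 UMIs. Every 5×FAD sample lay above both WT_PBS samples, while the 2 treated samples lay on either side of the 2 untreated ones. Genes with 10 or more UMIs over the 4 samples were higher in both samples of the first group in 15.4% of cases for 5xFAD_PBS against WT_PBS and in 16.8% for 5xFAD_Ab3FTnAu against WT_PBS, so this order alone is common.

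**Figure D1:**
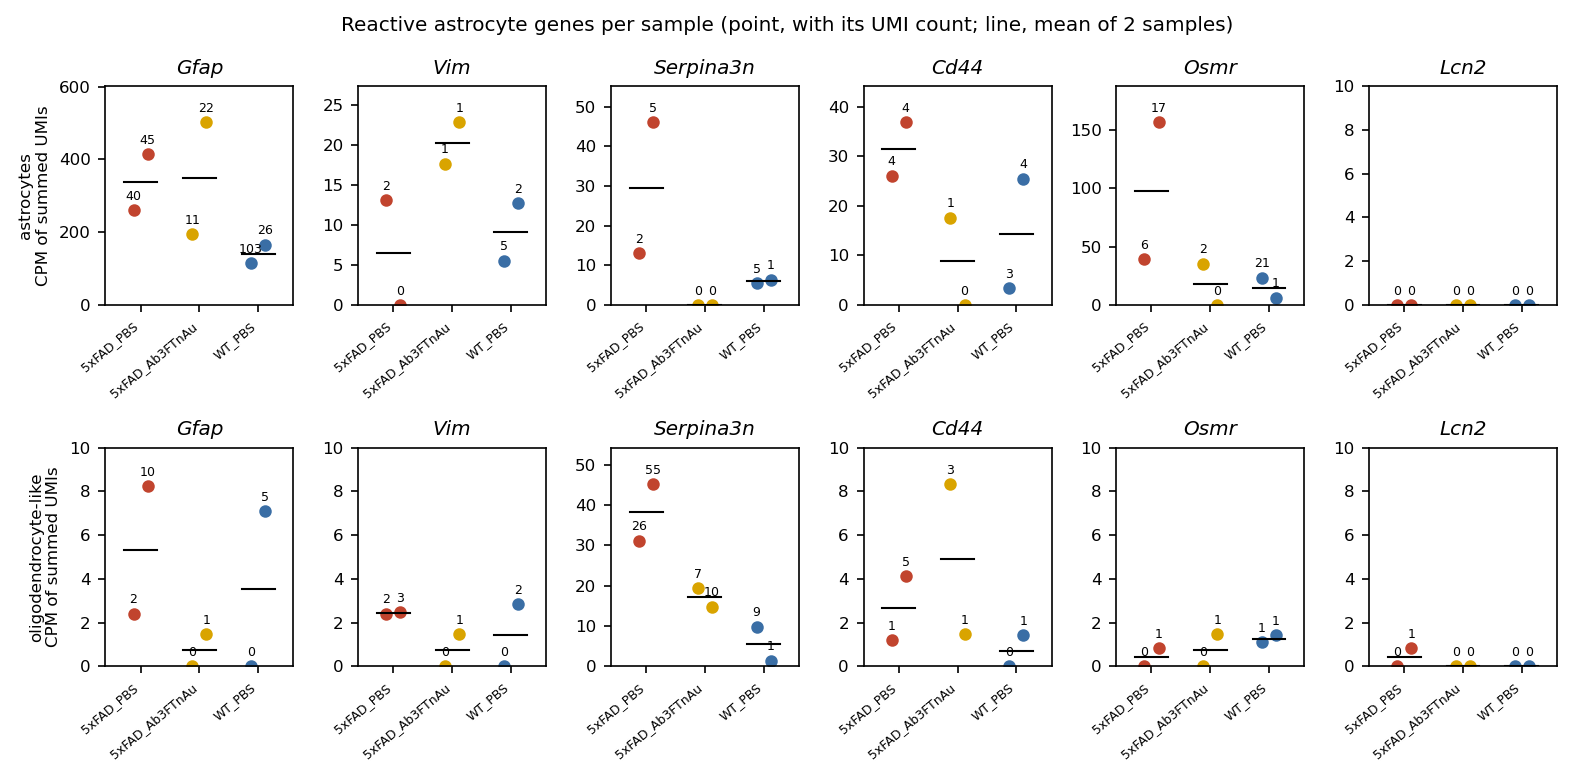
Level of the 6 genes per sample, in CPM of summed UMIs, in astrocytes (top row) and oligodendrocyte-like cells (bottom row). Each point is 1 sample with its UMI count, each line the mean of 2 samples, and each panel has its own axis. Gfap in astrocytes and Serpina3n in oligodendrocyte-like cells lie above WT_PBS in all 5×FAD samples, and Lcn2 is at 0 in all astrocyte sums.

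The quasi-likelihood test of edgeR, with Benjamini-Hochberg adjustment over the 3130 genes tested in astrocytes, called Gfap in none of the 3 comparisons. Its log2 fold change was 1.33 ± 0.39 (SE) for 5xFAD_PBS against WT_PBS (adjusted p = 0.425). It was -0.07 ± 0.44 for 5xFAD_Ab3FTnAu against 5xFAD_PBS (adjusted p = 0.987) and 1.26 ± 0.45 for 5xFAD_Ab3FTnAu against WT_PBS (adjusted p = 0.308). The median over all tested genes was near 0 in each (0.00, -0.01 and 0.00). The same fits called 0% of genes in the first comparison, 0.0319% in the second and 0.0639% in the third. At an unadjusted p under 0.05 the first had 246 genes, and DESeq2 also called 0 there, with 80 at an unadjusted p under 0.05.

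The direction against WT_PBS held in all 15 alternative fits, from 0.93 to 1.75 on the log2 scale for 5xFAD_PBS and from 0.43 to 1.67 for 5xFAD_Ab3FTnAu. The 5xFAD_PBS difference was called in 1 of the 15: without WT_PBS sample 2 it was 1.53 with an adjusted p of 0.0442 (edgeR), while without WT_PBS sample 1 it was 0.99 with an adjusted p of 0.999. A fit that leaves out a sample leaves its group with 1 library, which is assumed to vary like the other groups. The treated against untreated difference had no stable sign. It was 0.34 without 5xFAD_Ab3FTnAu sample 1, -0.89 without 5xFAD_Ab3FTnAu sample 2, 0.21 without 5xFAD_PBS sample 2 and -0.45 without 5xFAD_PBS sample 1. All cells of the astrocyte-like cluster, taken in place of the gate, gave 1.75 (adjusted p = 0.159) for 5xFAD_PBS against WT_PBS and -0.51 (adjusted p = 0.760) for treated against untreated.

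Gfap was also detected in a larger share of astrocytes in the 5×FAD samples. With each cell thinned to 1000 UMIs, a Gfap UMI was found in 25.7% of astrocytes (exact Clopper-Pearson 95% interval 16.01 to 37.6) and 29.3% (18.1 to 42.7) in 5xFAD_PBS. It was found in 18.4% (7.74 to 34.3) and 29.2% (12.6 to 51.1) in 5xFAD_Ab3FTnAu, and in 10.1% (7.69 to 12.99) and 9.64% (4.25 to 18.1) in WT_PBS. The WT_PBS shares were the 2 lowest, but the intervals of the treated samples, from 38 and 24 cells, reach into the WT_PBS ones. The 5xFAD_PBS interval of 16.01 to 37.6 also overlaps the WT_PBS interval of 4.25 to 18.1. The other 5xFAD_PBS interval starts at 18.1, where that WT_PBS interval ends. Before thinning the shares were 32.9% and 41.4%, 26.3% and 41.7%, and 14.98% and 22.9%. In neuron-like cells, which should not express Gfap, the thinned share was 0.0367% to 0.188%, at median depths of 4293 to 6068 UMIs per cell against 1330.5 to 2010.5 in astrocytes. Intervals cover counting error only.

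**Figure D2:**
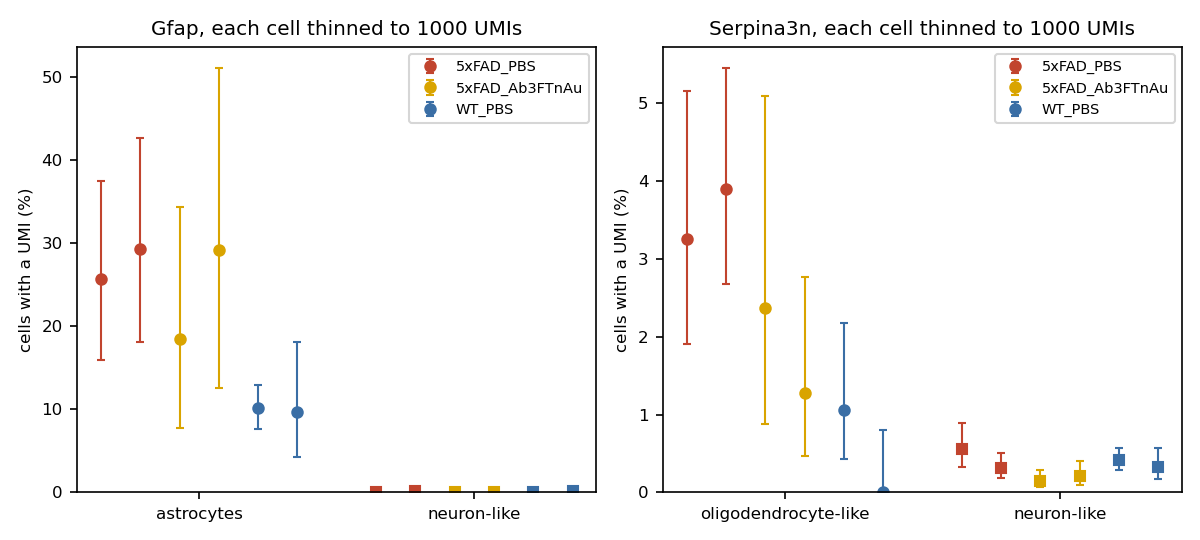
Share of cells with at least 1 UMI of Gfap (left) and Serpina3n (right) after thinning each cell to 1000 UMIs, 1 point per sample in the order 5xFAD_PBS, 5xFAD_Ab3FTnAu, WT_PBS, with exact 95% intervals. Circles are astrocytes (left) or oligodendrocyte-like cells (right) and squares are neuron-like cells, and the Gfap share in astrocytes lies far above the neuron-like share in every sample.

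Within a sample, Gfap was spread over many astrocytes. The most in any 1 cell was 7 UMIs, in 5xFAD_Ab3FTnAu sample 2, where that cell gave 31.8% of the sample's 22 UMIs, and in WT_PBS sample 1 the top cell gave 2.91%. Astrocytes with a Gfap UMI (166 cells) were set beside the 641 without one. Osmr was found in 7.83% against 3.43%, Serpina3n in 3.61% against 0.936%, Cd44 in 3.61% against 0.936%, and Vim in 1.205% against 1.25%, while Lcn2 was in none. These shares rest on 2 to 22 cells each and pool samples that differ in their Gfap share, the cells with a Gfap UMI were slightly deeper (median 1742.5 against 1604 UMIs), and no test was made on cells. Of the 549 Gfap UMIs in all kept cells, 45.0% lay in the gated astrocytes, 12.9% in the 234 cells of the astrocyte-like cluster outside the gate, and 27.9% in the 30548 neuron-like cells.

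Vim, the second filament gene, was nearly absent from astrocytes. Its level was 13.1 and 0 CPM in 5xFAD_PBS, 17.6 and 22.8 in 5xFAD_Ab3FTnAu, and 5.55 and 12.7 in WT_PBS, from 11 UMIs in all. The 2 treated samples were the highest, on 1 UMI each, the other groups overlapped, and the gene did not pass the filter on low counts. The highest mean level of Vim was in the red cell and vessel-marker cluster, 184 cells led by red blood cell and endothelial genes and left unnamed as a mixture. There it reached 51.7 and 147 CPM in 5xFAD_PBS, 0 and 0 in 5xFAD_Ab3FTnAu, and 16.7 and 168 in WT_PBS, from 18 UMIs. Both treated sums there are small, at 38119 and 21854 UMIs. Of the 5 genes of the intermediate filament list (Gfap, Vim, Nes, Synm and Des), 1 was tested in astrocytes, which was Gfap.

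Serpina3n was called in oligodendrocyte-like cells, the myelin-forming glia, and was too sparse in astrocytes to test. In oligodendrocyte-like cells its level was 31.2 and 45.2 CPM in 5xFAD_PBS (26 and 55 UMIs), 19.4 and 14.8 in 5xFAD_Ab3FTnAu (7 and 10 UMIs), and 9.88 and 1.42 in WT_PBS (9 and 1 UMIs). The 3 groups did not overlap, with 5xFAD_PBS highest, 5xFAD_Ab3FTnAu between and WT_PBS lowest. Such separation was seen in 17.2% of genes with 10 or more UMIs for 5xFAD_PBS above WT_PBS, 19.4% for 5xFAD_Ab3FTnAu below 5xFAD_PBS and 21.1% for 5xFAD_Ab3FTnAu above WT_PBS. In edgeR, Serpina3n rose in 5xFAD_PBS against WT_PBS by 2.68 ± 0.50 on the log2 scale (adjusted p = 0.0328), 1 of 29 genes called of 9193 (0.315%) and 1 of 18 called higher (0.196%). It was -1.26 ± 0.46 for 5xFAD_Ab3FTnAu against 5xFAD_PBS (adjusted p = 0.400), where 0.12% of genes were called, and 1.42 ± 0.64 for 5xFAD_Ab3FTnAu against WT_PBS (adjusted p = 0.256), where 2.84% were called.

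The direction of the Serpina3n rise held in all 14 alternatives, from 2.01 to 4.66 on the log2 scale, but its call was lost in 10 of them. With DESeq2 the adjusted p was 0.149. Leaving out 1 library ended the call in edgeR for 5xFAD_PBS sample 1 (adjusted p = 0.0610), 5xFAD_PBS sample 2 (0.318), 5xFAD_Ab3FTnAu sample 1 (0.05001) and 5xFAD_Ab3FTnAu sample 2 (0.0746). Without WT_PBS sample 2 it was 2.06 (adjusted p = 0.00151). Without WT_PBS sample 1 it was 4.66 (adjusted p = 3.72e-05), with -1.28 (adjusted p = 0.0432) for treated against untreated and 3.37 (adjusted p = 0.0382) for treated against WT_PBS. Wild type is then sample 2 alone, with 1 Serpina3n UMI, under its floor of 4.25 CPM, and its spread is taken from the other groups, so the values against it carry no wild-type replicate.

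The oligodendrocyte-like class joined 2 clusters, and WT_PBS sample 1 lay mostly in its own. Cluster 33 held 617 cells, 616 of them from WT_PBS sample 1, which had only 41 cells in cluster 11, where nearly all cells of the other 5 samples lay. Within cluster 11 alone the Serpina3n difference was 2.01 for 5xFAD_PBS against WT_PBS (adjusted p = 0.333), -1.28 for treated against untreated and 0.73 for treated against WT_PBS. All 5 of 5 astrocyte markers were detected in oligodendrocyte-like cells, from which gated cells had been taken out, and 638 of their 688 UMIs were of Slc1a3. Their summed level was 130 to 147 CPM in 5xFAD_PBS, 137 to 139 in 5xFAD_Ab3FTnAu and 159 to 161 in WT_PBS. In cells with no UMI of these 5 genes the Serpina3n difference for 5xFAD_PBS against WT_PBS was 2.68 (edgeR, adjusted p = 0.102). The part of astrocyte RNA in the result was not tested. Microglia markers, 7 of 7 detected, summed to 333 to 402 CPM in 5xFAD_PBS, 284 to 313 in 5xFAD_Ab3FTnAu and 216 to 321 in WT_PBS, and their part in the result was not tested.

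**Figure D3:**
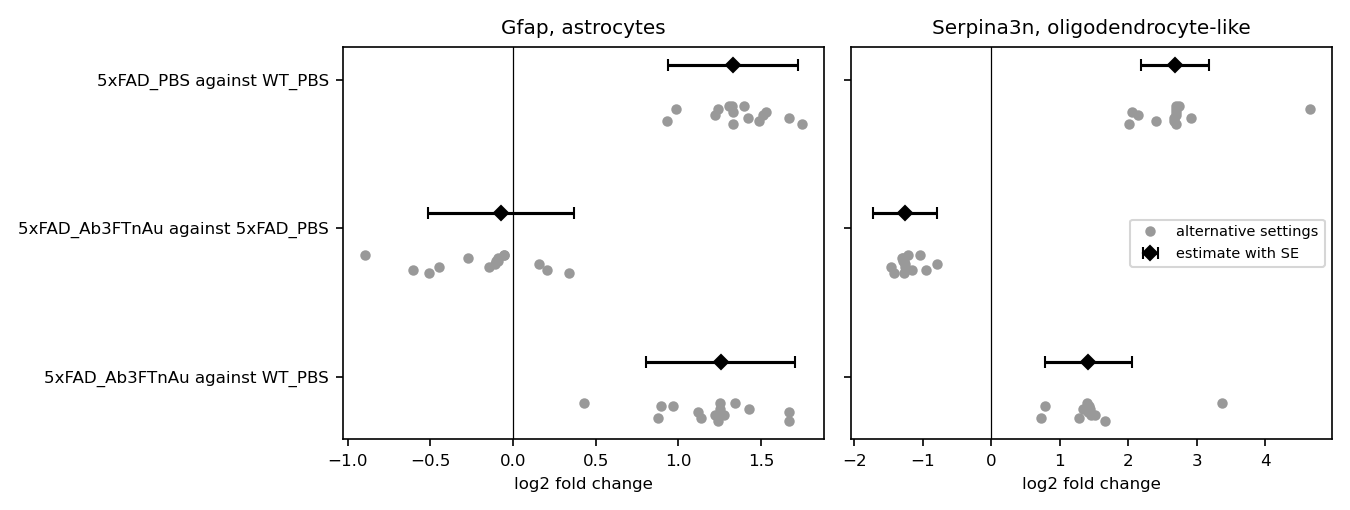
Log2 fold change of Gfap in astrocytes (left) and Serpina3n in oligodendrocyte-like cells (right) in the 3 comparisons, with the edgeR estimate and its SE (diamonds) and the values under alternative settings (grey points). Both 5×FAD groups lie above WT_PBS under every alternative drawn, the Gfap points of treated against untreated fall on both sides of 0, and those of Serpina3n all lie below it.

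Cell shares gave the same order for Serpina3n. After thinning, 3.26% (1.91 to 5.16) and 3.89% (2.68 to 5.45) of oligodendrocyte-like cells held a UMI in 5xFAD_PBS, 2.37% (0.875 to 5.09) and 1.28% (0.472 to 2.77) in 5xFAD_Ab3FTnAu, and 1.07% (0.429 to 2.18) in WT_PBS sample 1. In WT_PBS sample 2 none of 457 cells did after thinning (0 to 0.804), where 3 counts would make 0.656%, and 1 cell did before thinning (0.219%). Median depths were 1188 to 1446 UMIs. The share in neuron-like cells was 0.147% to 0.557% after thinning. Before thinning, cells of 5xFAD_PBS with a UMI of the complement gene C4b had Serpina3n more often than cells without one. The shares were 8.02% and 8.16% (13 and 23 cells holding both) against 3.06% and 3.33%. In 5xFAD_Ab3FTnAu they were 2.27% and 2.44% against 2.87% and 2.03%, with 1 and 3 cells holding both. In WT_PBS, 9 and 8 cells had C4b and 0 held both. The depth of cells with and without C4b was not compared, and no test was made on cells. The near copies of Serpina3n took few UMIs: 108 in oligodendrocyte-like cells were assigned to Serpina3n and 2 to the 9 other Serpina3 genes, both to Serpina3c.

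In astrocytes Serpina3n had 13 UMIs. Its level was 13.1 and 46.0 CPM in 5xFAD_PBS, 0 and 0 in 5xFAD_Ab3FTnAu, and 5.55 and 6.37 in WT_PBS. Both 5xFAD_PBS samples were above both WT_PBS samples. A count of 0 in the treated samples allows up to 52.9 and 68.4 CPM, above both 5xFAD_PBS levels, so a difference from 5xFAD_PBS was not detectable at this depth. Fitted with no filter on low counts, the log2 fold change for 5xFAD_PBS against WT_PBS was 2.07 ± 1.09 (edgeR, adjusted p = 0.939). Whether astrocytes and oligodendrocyte-like cells differed in their change was tested with an interaction term in 1 edgeR fit over both classes: the difference was -0.14 ± 1.28 for Serpina3n (adjusted p = 1) and 0.38 ± 1.06 for Gfap (adjusted p = 1) in 5xFAD_PBS against WT_PBS. For Gfap it was 2.21 ± 1.21 (adjusted p = 0.980) in treated against untreated and 2.59 ± 1.38 (adjusted p = 0.809) in treated against WT_PBS.

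Oligodendrocyte precursor-like cells showed Serpina3n at 8.10 and 20.1 CPM in 5xFAD_PBS, 4.85 and 3.04 in 5xFAD_Ab3FTnAu, and 7.31 and 2.998 in WT_PBS. The 5xFAD_PBS samples were again the highest, a separation seen above WT_PBS in 14.7% of genes and above 5xFAD_Ab3FTnAu in 17.8%, and the counts ran from 1 to 7 UMIs. This class too joined 2 clusters, of which cluster 32 held 489 cells, 460 of them from WT_PBS sample 1. In the other, cluster 24, the level was 8.31 and 20.3 CPM in 5xFAD_PBS, 5.18 and 0 in 5xFAD_Ab3FTnAu, and 0 (of 22 cells) and 3.17 in WT_PBS. The highest single level of the gene was in 1 other sum. In WT_PBS sample 1 the red cell and vessel-marker cluster held 36 Serpina3n UMIs (301 CPM) in 18 of 74 cells, and the other 5 samples had 0 there. All 36 UMIs were in cells with UMIs of the liver genes Alb, Fgb, Hp or Crp, which had 2083 UMIs in 29 cells of that sample and 0 in the cluster's cells of the others.

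Cd44 and Osmr, the surface receptors, were counted in astrocytes by 16 and 47 UMIs. Cd44 was at 26.1 and 36.8 CPM in 5xFAD_PBS, 17.6 and 0 in 5xFAD_Ab3FTnAu, and 3.33 and 25.5 in WT_PBS. Its 5xFAD_PBS samples were above both WT_PBS samples, the lower by 26.1 against 25.5 CPM. These 2 values rest on 4 UMIs each, so their order comes only from the size of the sums. Osmr was at 39.2 and 156 CPM in 5xFAD_PBS, 35.3 and 0 in 5xFAD_Ab3FTnAu, and 23.3 and 6.37 in WT_PBS. Both 5xFAD_PBS samples were above all 4 others, an order seen in 19.6% of genes for 5xFAD_Ab3FTnAu below 5xFAD_PBS. The 5xFAD_Ab3FTnAu values rest on 2 and 0 UMIs for Osmr and on 1 and 0 for Cd44, under floors of 52.9 and 68.4 CPM. The lower 5xFAD_PBS level of Osmr and both of Cd44 also lie under these floors. A fall with treatment therefore cannot be told at this depth for either gene. In astrocytes 4 of the 6 members (Gfap, Serpina3n, Cd44 and Osmr) were higher in both 5xFAD_PBS samples than in both WT_PBS samples. The 15.4% given above covers genes with 10 or more UMIs over the 4 samples, which Vim (9) and Lcn2 (0) did not reach. The lower 5xFAD_PBS value of Serpina3n, from 2 UMIs, was under its floor of 19.6 CPM, and that of Cd44 had the same UMI count as the higher WT_PBS value. The members were chosen with earlier results of these data known, so this count is a description only. Only Gfap passed the filter in astrocytes, so no count of calls over the members was possible there.

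Without the filter, edgeR gave Osmr 2.11 ± 0.60 (adjusted p = 0.0973) and Cd44 1.81 ± 0.98 (adjusted p = 0.939) for 5xFAD_PBS against WT_PBS, and Gfap 1.24 ± 0.34 (adjusted p = 0.0715). For 5xFAD_Ab3FTnAu against 5xFAD_PBS, Osmr was at -2.44 ± 0.97 (adjusted p = 1), on 2 and 0 UMIs in the treated samples. In 5xFAD_PBS sample 2 the 17 Osmr UMIs came from 9 cells, 5 of them from 1 cell. Osmr was also present in the red cell and vessel-marker cluster, at 103 and 49.0 CPM in 5xFAD_PBS, 52.5 and 45.8 in 5xFAD_Ab3FTnAu and 25.1 and 48.1 in WT_PBS. Both 5xFAD_PBS samples were above both WT_PBS samples there, with 13 UMIs over the 4 samples, as were 17.6% of genes. The closest pair, 5xFAD_PBS sample 2 and WT_PBS sample 2, had 2 UMIs each, under floors of 73.4 and 72.1 CPM. The order of that pair thus comes only from the size of the sums. Osmr was at or below 3.04 CPM in every oligodendrocyte-like, precursor-like, neuron-like and microglia-marker sum.

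Cd44 had its highest mean in the microglia-marker cluster, 885 shallow cells led by microglial genes and left unnamed. It was at 10.2 and 20.7 CPM there in 5xFAD_PBS, 77.7 and 9.05 in 5xFAD_Ab3FTnAu (from 4 and 1 UMIs), and 0 in both WT_PBS samples. The 5xFAD_PBS samples were above WT_PBS, as were 25.4% of genes with 10 or more UMIs. A count of 0 in the WT_PBS samples allows up to 21.8 and 43.4 CPM, above both 5xFAD_PBS levels. A difference of Cd44 from WT_PBS therefore cannot be told at this depth. Of its 509 UMIs in all kept cells, 76.0% lay in neuron-like cells. The level among the 20 neuron-like clusters ran from 0 to 30.2 CPM with a median of 1.28, and the highest, in cluster 2 (675 cells), rested on 102 UMIs from 4 samples. Neither 5xFAD_Ab3FTnAu sample, with 12 and 201 cells in that cluster, held any of these UMIs.

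Lcn2 was almost undetected. No astrocyte of any sample held a UMI, which allows up to 3.33 CPM in WT_PBS sample 1 and 19.1 to 68.4 CPM in the other 5 samples. Only 4 UMIs were found in all 41656 cells, in 1 oligodendrocyte-like, 1 neuron-like, 1 red cell and vessel-marker and 1 unnamed-cluster cell. No comparison of Lcn2 between groups was possible.

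**Figure D4:**
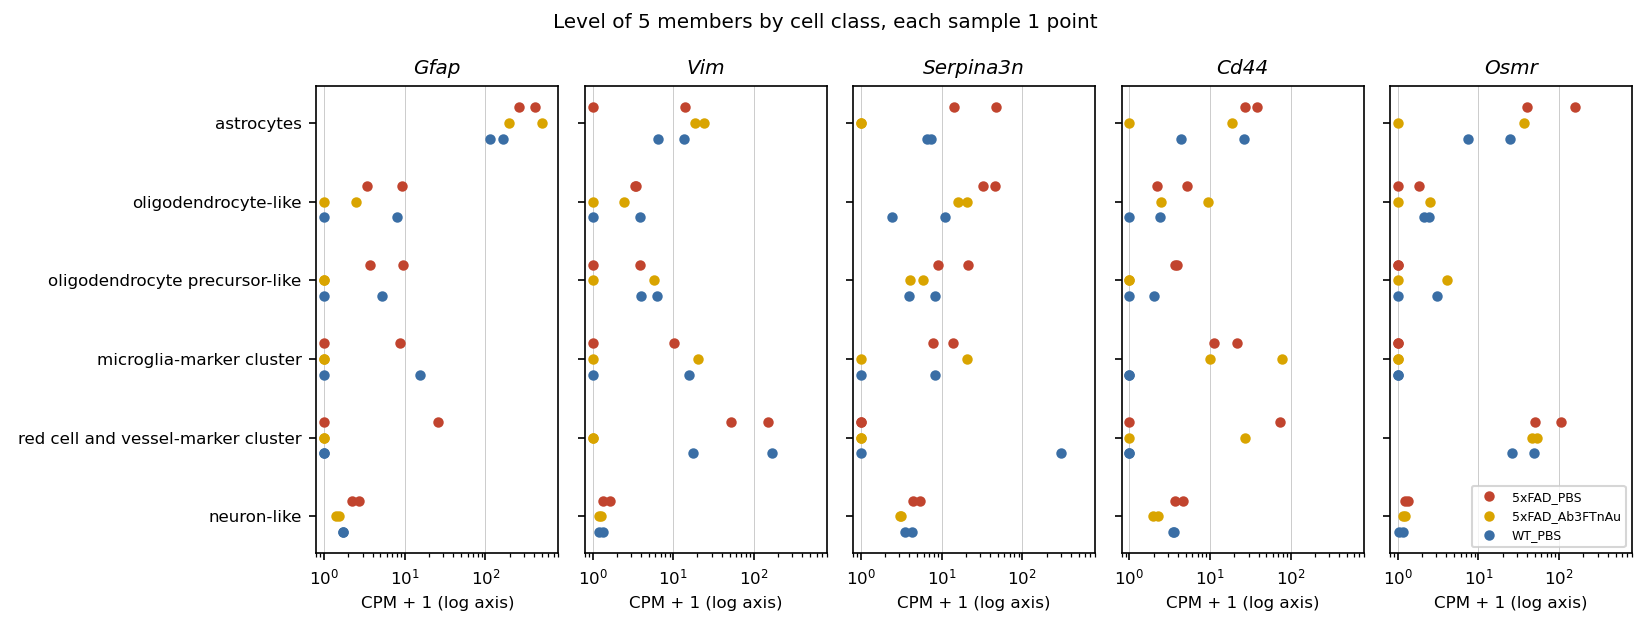
Level of 5 members in the 6 cell classes, as CPM plus 1 on a log axis, with 1 point per sample coloured by group (Lcn2, with 4 UMIs in all, is left out). Gfap is highest in astrocytes in every sample, Vim and Osmr are also seen in the red cell and vessel-marker cluster, and 1 WT_PBS point stands alone for Serpina3n in that cluster at 301 CPM.

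Ordered by mean level over the 6 samples, Gfap was at 275 CPM ± 152 (SD, n = 6) in astrocytes and at or below 4.08 in the other 5 classes, and no sample's astrocyte level (114 or more) overlapped any other class (24.5 or less). For Osmr the vessel-marker cluster (54.0 ± 26.1) and astrocytes (43.4 ± 57.5) did not differ beyond their spread, and the other classes were at or below 0.855. For Serpina3n the order was the vessel-marker cluster (50.2 ± 123, all from 1 sample), oligodendrocyte-like cells (20.3 ± 15.7), astrocytes (11.8 ± 17.4), precursor-like cells (7.73 ± 6.41), the microglia-marker cluster (7.72 ± 7.52) and neuron-like cells (2.95 ± 0.89), and neighbours overlapped. For Vim the vessel-marker cluster (63.9 ± 75.3) stood before astrocytes (11.96 ± 8.19), and for Cd44 the microglia-marker cluster (19.6 ± 29.5), astrocytes (18.2 ± 14.2) and the vessel-marker cluster (16.6 ± 29.8) were alike within their spread. These are levels in classes drawn from the same cells, given with no test.

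In neuron-like cells the members were low but the sums were deep (21882250 to 42422613 UMIs). Gfap was at 1.23 and 1.73 CPM in 5xFAD_PBS, 0.420 and 0.523 in 5xFAD_Ab3FTnAu, and 0.731 and 0.736 in WT_PBS. Cd44 was at 3.56 and 2.73, 1.26 and 0.971, and 2.55 and 2.47, and Serpina3n at 3.38 and 4.37, 2.14 and 2.05, and 3.25 and 2.51. For all 3 genes the groups did not overlap, with 5xFAD_PBS highest and 5xFAD_Ab3FTnAu lowest. Only the place of 5xFAD_Ab3FTnAu against WT_PBS was the reverse of that for Gfap in astrocytes and for Serpina3n in oligodendrocyte-like cells. In those classes too, 5xFAD_PBS was above WT_PBS. Of genes with 10 or more UMIs, 21.7% were separated this way above WT_PBS in 5xFAD_PBS, 32.4% below 5xFAD_PBS in 5xFAD_Ab3FTnAu, and 28% below WT_PBS in 5xFAD_Ab3FTnAu. Osmr was above WT_PBS in both 5xFAD_Ab3FTnAu samples (0.175 and 0.224 against 0.165 and 0.0433 CPM), as were 32.2% of genes.

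Neuron-like cells of WT_PBS sample 1 also lay largely in clusters of their own: 1460 of the 1472 cells of cluster 4 and 2103 of the 2151 of cluster 9 were from it, against 106 of 6595 in cluster 6 and 21 of 3953 in cluster 15. The levels were therefore taken again, after seeing the data, in the 15 of 20 neuron-like clusters with 20 or more cells of every sample. There Gfap was at 1.19 and 1.79 CPM in 5xFAD_PBS, 0.424 and 0.550 in 5xFAD_Ab3FTnAu, and 0.857 and 0.751 in WT_PBS, and Serpina3n at 3.42 and 4.51, 2.16 and 2.12, and 2.77 and 2.52, in the same order as before. Cd44 was at 2.09 and 1.48, 1.27 and 1.02, and 2.98 and 2.48, so that WT_PBS was now above 5xFAD_PBS, and the order given for Cd44 rests on the clusters left out. Osmr, at 0.177 and 0.236 in 5xFAD_Ab3FTnAu against 0.286 and 0 in WT_PBS, overlapped there.

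None of the 4 members tested in neuron-like cells (Gfap, Vim, Serpina3n and Cd44) passed the edgeR threshold. For 5xFAD_Ab3FTnAu against 5xFAD_PBS, Gfap was at -1.65 ± 0.33 (adjusted p = 0.0750) and Cd44 at -1.48 ± 0.28 (adjusted p = 0.0710). For 5xFAD_Ab3FTnAu against WT_PBS, Cd44 was at -1.17 ± 0.28 (adjusted p = 0.0604), and for 5xFAD_PBS against WT_PBS, Gfap was at 1.002 ± 0.307 (adjusted p = 0.650). These edgeR fits took all neuron-like clusters, cluster 2 with its Cd44 UMIs among them, and were not repeated in the 15 clusters. The fits called 0%, 0% and 3.9% of 19402 genes in 5xFAD_PBS against WT_PBS, treated against untreated and treated against WT_PBS, with 1283, 4395 and 6615 at an unadjusted p under 0.05. The 5 astrocyte gate genes, all detected, summed to 25.7 to 30.3 CPM in neuron-like cells of 5xFAD_PBS and 26.2 to 27.7 in WT_PBS, which overlapped. In 5xFAD_Ab3FTnAu they summed to 10.6 to 14.2, below both other groups. WT_PBS ran from 17.7 to 27.5 in the 15 clusters, and the part of these genes in the Gfap values was not tested.

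Genes that work with the members were counted from fixed lists. Of the 17 genes of the gp130 and STAT3 list, 5 were tested in astrocytes and 0 called in any comparison, with a median of 0.05 for 5xFAD_PBS against WT_PBS beside 0.00 over all genes. Stat3 itself was at 1.25 ± 0.42 (edgeR, adjusted p = 0.455). In oligodendrocyte-like cells 8 of the 17 were tested. In 5xFAD_PBS against WT_PBS 1 was called, and 7 of 8 were positive, with a median of 0.32 beside -0.01 over all genes. The called gene was Bcl3, an atypical IκB protein that acts with NF-κB in the nucleus, which rose by 5.08 ± 0.73 in 5xFAD_PBS (edgeR, adjusted p = 0.00523) and by 4.91 ± 0.80 in 5xFAD_Ab3FTnAu (adjusted p = 0.00644), both against WT_PBS. The first call was lost in 3 of 14 alternatives (adjusted p up to 0.162, with DESeq2), among them edgeR without 5xFAD_PBS sample 2 (0.0637). The second was lost in 2 of 13, without 5xFAD_Ab3FTnAu sample 2 (edgeR, adjusted p = 0.1001) and in cells with at least 1 mitochondrial UMI (0.2095). Stat3 was at 1.23 ± 0.30 (adjusted p = 0.117) and 1.11 ± 0.32 (adjusted p = 0.0737).

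Of 16 plaque-associated astrocyte genes, 10 were tested in astrocytes. None was called in 5xFAD_PBS against WT_PBS, with a median of 0.29 beside 0.00 over all genes. In 5xFAD_Ab3FTnAu against 5xFAD_PBS 1 fell and 0 of 10 were positive, with a median of -1.13 beside -0.01. The gene that fell was Apoe, the main lipid carrier secreted by astrocytes, by 2.81 ± 0.37 on the log2 scale (edgeR, adjusted p = 0.0338), and it fell by 2.65 ± 0.37 against WT_PBS (adjusted p = 0.0274). The call against 5xFAD_PBS was lost in 5 of 16 alternatives, among them without 5xFAD_Ab3FTnAu sample 1 (edgeR, adjusted p = 0.117), without sample 2 (0.0556) and, the highest, in cells with no mitochondrial UMI (0.281). The call against WT_PBS was lost in 2 of 16, one of them without 5xFAD_Ab3FTnAu sample 1 (adjusted p = 0.0860), while the direction held in all 16 alternatives of each. The list holds Gfap, Vim, Serpina3n and Osmr, and Gfap, at -0.07, was the nearest to 0 of the 10. Of 11 homeostatic genes, 10 were tested, 0 called and 0 positive in treated against untreated, with a median of -0.40. In treated against WT_PBS 0 of these 10 were positive (median -0.68), beside 4 of 10 plaque-associated genes (median -0.96). In oligodendrocyte-like cells 5 homeostatic genes were tested. There 0 were positive in treated against untreated (median -0.50) and 0 in treated against WT_PBS (median -0.77), so lower values in treated samples were not particular to the plaque-associated list. In the treated samples 8 astrocytes each passed a stricter gate, against 33 to 289 in the others.

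In oligodendrocyte-like cells 11 of the 16 plaque-associated genes were tested, and Serpina3n and C4b rose in 5xFAD_PBS against WT_PBS. C4b, complement component 4, rose by 5.00 ± 0.29 (edgeR, adjusted p = 1.13e-07) there and by 4.25 ± 0.30 (adjusted p = 2.80e-06) in 5xFAD_Ab3FTnAu against WT_PBS. In treated against untreated 0 of the 11 were positive, with a median of -0.95 beside 0.00, and 2 fell: Apoe by 1.87 ± 0.20 (adjusted p = 0.000618) and the protease inhibitor Cst3 by 1.19 ± 0.19 (adjusted p = 0.0157). Against WT_PBS the treated samples were lower in Apoe (-1.59 ± 0.20, adjusted p = 0.00103), Cst3 (-1.75 ± 0.19, adjusted p = 0.000195) and the cathepsin gene Ctsl (-1.18 ± 0.27, adjusted p = 0.0311), all in edgeR. Of the 12 A1 genes 2 were tested, and the class I gene H2-D1 rose in 5xFAD_PBS by 1.64 ± 0.32 (adjusted p = 0.0440). Of the 13 pan-reactive genes 2 were tested, and Serpina3n was the 1 called. None of the 12 A2 genes was tested in either class. Of the 9 ligands and receptors of Cd44 and Lcn2, 1 was tested in oligodendrocyte-like cells, the Lcn2 receptor gene Slc22a17, which fell in 5xFAD_Ab3FTnAu against WT_PBS by 0.89 ± 0.19 (adjusted p = 0.0244), and 2 were tested in astrocytes, with 0 called.

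Not all of these calls in oligodendrocyte-like cells held when the fit was varied, although no direction turned. Both C4b rises, the Apoe fall in treated against untreated and the Cst3 fall against WT_PBS kept their calls in all 15 alternatives of each. Apoe against WT_PBS lost its call without 5xFAD_Ab3FTnAu sample 2 (edgeR, adjusted p = 0.0529). The H2-D1 call was lost in 10 of 14 alternatives, among them without 5xFAD_PBS sample 1 (adjusted p = 0.157) or 2 (0.378) and without 5xFAD_Ab3FTnAu sample 1 (0.0587) or 2 (0.0835). The Cst3 fall in treated against untreated lost its call in 5 of 15, among them without 5xFAD_PBS sample 2 (edgeR, adjusted p = 0.200), 5xFAD_Ab3FTnAu sample 1 (0.134) or sample 2 (0.431). Ctsl lost its call in 8 of 15, among them without 5xFAD_Ab3FTnAu sample 1 (adjusted p = 0.166), sample 2 (0.289) or WT_PBS sample 1 (0.155). Slc22a17 lost its call in 7 of 15, among them without 5xFAD_PBS sample 2 (adjusted p = 0.0507), 5xFAD_Ab3FTnAu sample 1 (0.174) or sample 2 (0.214).

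The comparisons share samples: 5xFAD_PBS and WT_PBS each enter 2 of the 3, so their values are given side by side and not as separate evidence. The genes most like each member were read from the correlation of log2(CPM + 10) over 36 sums, 6 samples by 6 classes, which share libraries and cells. Gfap was closest to D930020B18Rik (r = 0.956), Nat8f6 (0.947), Grin2c (0.945), Gli1 (0.940) and 2900052N01Rik (0.938). Within classes, with each class's mean removed, these r fell to between -0.093 and 0.369, so they reflect the classes in which the genes are found. Osmr was closest to Zic2 (0.902), Itga1 (0.886) and Col4a5 (0.880), and Vim to the endothelial genes Lef1 (0.842), Sox18 (0.829) and Erg (0.826). Within classes the r of Osmr fell to 0.463, 0.529 and 0.353, while those of Vim were 0.757, 0.809 and 0.826. The 5 genes closest to Serpina3n were Hamp2, Gm20619, Cat, Krt18 and Crybg2, at 0.773 to 0.797. Without the 1 sum at 301 CPM, the WT_PBS sample 1 cells with liver transcripts, these r were 0.438 to 0.583, so the list rests on that sum. Cd44 and Lcn2 were under the 20 CPM asked of a gene in at least 1 class and were left out of this measure.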

How the data were processed

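Single-cell RNA libraries of mouse hippocampus were read with the Chromium 3′ kit, per the labels' protocols. The files as deposited are matrices of unnormalized UMI counts for each gene in each barcode. Per the file headers they were made with Cell Ranger 7.1.0. The submitters' processing notes name mm10 and Seurat 4.3.0.1. The sources used here do not give the treatment of introns, and no cell annotation by the authors was used.

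Barcodes with 500 or more genes, 1000 or more UMIs and no more than 15% of mitochondrial UMIs were kept (44736 barcodes). Scrublet in scanpy 1.11.5 scored doublets per sample. Its automatic threshold called 0.0128% to 17.3% of a sample, so the top-scoring cells were removed at 0.8% per 1000 cells (3080 in all). Median depth after this was 3957 to 5131 UMIs. Clusters (2000 variable genes without the 6 members, 30 principal components, 15 neighbours, Leiden resolution 1.0, igraph 0.11.9, Python 3.11.15) were named from 15 marker lists, and cells of the astrocyte gate were taken out of every other class. The microglia-marker cluster is cluster 10 and the red cell and vessel-marker cluster is cluster 8. The stricter gate asked for 5 UMIs from 3 genes.

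Summed counts were tested with the quasi-likelihood test of edgeR 4.0.16 (R 4.3.3): all 6 samples in 1 fit per class, TMM, filterByExpr, no covariate, Benjamini-Hochberg over all genes tested, threshold 0.05. The SE was taken as the log2 fold change divided by the square root of F. Alternatives were DESeq2 1.42.0, no filter, only the groups compared, a replicate block, each sample left out, doublets kept, other gates, and cells with or without mitochondrial UMIs. The fits and levels restricted to certain clusters were chosen after seeing the data. The procedure was tested on simulated data in which 200 genes per comparison were changed. For 5xFAD_PBS against WT_PBS it recovered 18% of 2-fold and 75% of 4-fold changes in astrocytes (3130 genes, 4 false calls), and 37% and 84% in oligodendrocyte-like cells (9193 genes, 5 false calls). For treated against untreated astrocytes it recovered 12% and 53%.

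The members and lists were chosen with earlier results of these data known. Named genes are the 6 members, up to 8 members per list with an adjusted p under 0.05 in astrocytes or oligodendrocyte-like cells, and the 5 genes most like each member among 11935 genes with at least 20 CPM in some class. Cluster 2, Stat3 and the marker genes were named after their values were seen. A count of 0 is read with a floor of 3 counts per sample. The promoter windows come from RefSeq.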

Additional observations from a re-analysis of the deposited data

Results flagged for a closer look

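The level of Gfap in 5xFAD_Ab3FTnAu lay on opposite sides of WT_PBS in different classes, although edgeR called neither difference. The ratio of mean CPM was 2.48 in astrocytes, where both treated samples were above both wild-type samples, and 0.643 in neuron-like cells, where both were below. The adjusted p of the 2 comparisons was 0.308 and 0.230 (edgeR). Serpina3n had a ratio of 3.03 in oligodendrocyte-like cells (adjusted p = 0.256) and 0.727 in neuron-like cells (adjusted p = 0.230). The 5 astrocyte gate genes were also lower in neuron-like cells of 5xFAD_Ab3FTnAu (10.6 to 14.2 CPM against 26.2 to 27.7 in WT_PBS). These differences between classes were not tested.

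Some signal lay in cells that no comparison used. In the clusters left unnamed, the lower of the 2 5xFAD_PBS samples had 1.54 CPM of Gfap and 1.92 CPM of Cd44, above both WT_PBS samples, as were 24.1% of genes with 10 or more UMIs there. Among barcodes outside the cell filter, the lower 5xFAD_PBS sample had 16.01 CPM of Gfap, 5.17 CPM of Vim, 19.2 CPM of Serpina3n and 6.21 CPM of Cd44, again above both WT_PBS samples, as were 20.4% of genes. Osmr was not: its lower 5xFAD_PBS sample had 4.14 CPM, against 9.52 in WT_PBS sample 1. The values of the other 4 genes rest on 5 to 6 UMIs each.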

How the results depend on the processing

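Counts of called genes below are in the order 5xFAD_PBS against WT_PBS, 5xFAD_Ab3FTnAu against 5xFAD_PBS and 5xFAD_Ab3FTnAu against WT_PBS, and edgeR called 0, 1 and 2 in astrocytes and 29, 11 and 261 in oligodendrocyte-like cells. DESeq2 called 0, 2 and 7, and 7, 4 and 85. Without a filter on low counts edgeR called 56, 25 and 102, and 230, 105 and 671. With only the samples compared, 0, 11 and 2, and 8, 211 and 36 were called. Cells with no mitochondrial UMI gave 1, 0 and 9, and 11, 4 and 221, and there neither Gfap nor Serpina3n passed the filter in these classes. Cells with at least 1 mitochondrial UMI gave 0, 0 and 2, and 18, 4 and 14. The stricter gate left 1 called gene in treated astrocytes against WT_PBS, and the astrocyte-like cluster in place of the gate gave 34. Oligodendrocyte-like cells with no UMI of the astrocyte genes gave 15 in 5xFAD_PBS against WT_PBS, and cluster 11 alone gave 87 for treated against untreated and 160 for treated against WT_PBS. Leaving out 1 sample moved the counts between 0 and 63, 0 and 19, and 0 and 104 in astrocytes, and between 4 and 943, 2 and 260, and 10 and 1362 in oligodendrocyte-like cells. The highest came without WT_PBS sample 2, or, for treated against untreated, without WT_PBS sample 1. The cause of these shifts was not tested.

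Gfap in treated against untreated astrocytes turned positive in 3 alternatives: 0.21 without 5xFAD_PBS sample 2, 0.34 without 5xFAD_Ab3FTnAu sample 1 and 0.16 in cells with at least 1 mitochondrial UMI. Leaving out single samples moved that value between -0.89 and 0.34. Against WT_PBS its direction held in every alternative run. Without thinning, the share of astrocytes with a Gfap UMI was 14.98% and 22.9% in WT_PBS. The Serpina3n rise also lost its call with only the samples compared (adjusted p = 0.137, edgeR) and in cells with at least 1 mitochondrial UMI (adjusted p = 0.215).

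Replicate numbers gave no sign of pairing the samples: the deviations of same-numbered samples correlated at -0.036, -0.286 and -0.146. The values with WT_PBS include its sample 1, which stood apart, and such correlations cannot exclude a batch shared by same-numbered samples. With the replicate number as a block, edgeR called 0, 0 and 1 gene in astrocytes and 13, 8 and 160 in oligodendrocyte-like cells, and Serpina3n in 5xFAD_PBS against WT_PBS was at 2.71 (adjusted p = 0.0783). The treated astrocyte sums, from 38 and 24 cells, limit what can be seen there: no member but Gfap reached 3 UMIs in either.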
